A study of Mus musculus with 25 samples.

Results

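*Dbp*, *Tef* and *Hlf* encode the PAR bZIP transcription factors (proline and acidic amino acid-rich basic leucine zipper proteins), and *Nfil3* encodes a bZIP protein that binds the same DNA element. These 4 genes were chosen by name out of 50559 genes in the count table, because they form an activator and repressor set downstream of the circadian clock. The rule uses gene names and no measured value, but it was set with earlier results of these data known. All 4 passed the filter on low counts. The libraries hold ribosome-bound RNA from spinal cord cholinergic neurons, the cells that include motor neurons, taken from 6-month-old male C57BL/6J mice kept in 12-h light and 12-h dark. Control mice were *ChAT-Cre*;*RiboTag* fx/+, and *ChAT-BKO* mice were *ChAT-Cre*;*RiboTag* fx/+;*Bmal1* fx/fx, so both genotypes carried the Cre driver and the tagged ribosomal protein and only the knockout carried floxed *Bmal1* (*Arntl*). Each genotype was sampled at Zeitgeber time (ZT) 8, in the light phase, and at ZT20, in the dark phase, with 6 mice in each of the 4 groups and 1 cord per immunoprecipitation (IP). A single further library was made from pooled whole-cord input RNA. *ChAT-Cre* acts wherever choline acetyltransferase is or has been expressed, so spinal cholinergic interneurons and preganglionic neurons are included with motor neurons, and glia keep an intact *Bmal1*.

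In the circadian clock of mammals, BMAL1 and CLOCK bind E-box elements and drive *Per*, *Cry* and *Nr1d* genes together with *Dbp*, while the REV-ERB receptors that *Nr1d1* and *Nr1d2* encode repress a further set of genes that includes *Nfil3*. DBP, TEF and HLF activate transcription through the D-box, and NFIL3 (E4BP4) occupies the same element as a repressor, so that the balance of the PAR bZIP proteins and NFIL3 sets D-box output over the day. Mice lacking the PAR bZIP activators together develop seizures and have low brain levels of the active form of vitamin B6, whose synthesis requires the D-box-driven kinase gene *Pdxk*. The comparisons below ask how the activators and the repressor differed between the genotypes at each time point, and between the time points within each genotype.

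Depth was 6.78 to 18.6 M counts (M, 1000000) in the control libraries at ZT8, 4.04 to 17.4 M counts in *ChAT-BKO* at ZT8, 10.6 to 31.7 M counts in controls at ZT20 and 5.22 to 18.7 M counts in *ChAT-BKO* at ZT20. The input library held 7.40 M counts. *Arntl*, the targeted gene, was measured at 8.44 ± 1.43 CPM (counts per 1000000 counts of normalized library size, SD, n = 6) in controls and 2.64 ± 0.538 in *ChAT-BKO* at ZT8, and at 8.73 ± 1.18 and 1.92 ± 0.515 at ZT20, with no overlap between genotypes at either time. All 7 cholinergic markers were above the input (median log2 ratio 2.82), and none of the 6 astrocyte, 6 oligodendrocyte, 6 microglia or 5 endothelial markers was. The 6 oligodendrocyte markers together still held 1660 to 2489 CPM in each IP library, so RNA of other cells was present. In such bulk samples, fewer cells of a type and less RNA per cell cannot be told apart.

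*Dbp* (ENSMUSG00000059824) lies at chr7:45705088-45710203 on the plus strand of GRCm38 (mm10), 67.5 Mb from *Arntl* on the same chromosome. *Tef* (ENSMUSG00000022389) lies at chr15:81802421-81826863 on the plus strand, *Hlf* (ENSMUSG00000003949) at chr11:90336536-90390895 on the minus strand and *Nfil3* (ENSMUSG00000056749) at chr13:52967209-52981073 on the minus strand. The exons of *Dbp* share 539 bp, 18.0% of their length, with those of *Sphk2*, a sphingosine kinase gene on the opposite strand. *Dbp* and *Sphk2* had counts that were not whole numbers in all 25 libraries, which shows reads divided between features by the estimation. In each IP library the fractional parts of the pair complement each other (141.78 and 739.22 in control replicate 1 at ZT8), so reads were divided between these genes. The effect of this division on the level of *Dbp* was not tested. *Tef* shares 193 bp, 2.45% of its exons, with the antisense gene *Gm17597*. The strand setting of the counting is not given in the sources used here.

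The proximal promoters of the 4 genes differ in the clock-related elements they hold, and they are shown because *Bmal1* encodes the E-box-binding protein that was deleted. RefSeq promoter windows (GRCm38.p6, 250 bases before to 50 after each annotated start, both strands searched) were scanned for the E-box CACGTG, the D-box TTATGTAA or TTACGTAA and the cAMP response element TGACGTCA. Across 32851 windows, 7.15% held the E-box, 1.06% a D-box and 1.79% the cAMP response element. Both *Tef* windows held an E-box, *Hlf* held a cAMP response element 9 bases before its start, and the *Dbp* and *Nfil3* windows held none of these letters. Sequence outside the windows, and letters close to these motifs, were not searched, so elements of these genes can lie elsewhere. Of the 49 genes in the members' list and the pathway lists used below, 39 matched a window, 8 held an E-box and 2, *Per3* and *Alb*, held a D-box. *Per3* is printed as the clock gene whose window carries the element that the PAR bZIP proteins and NFIL3 bind. The motif stands in capitals, 5′ to 3′ on the strand of the gene, with up to 16 bases on either side.
Tef window 1, E-box 127 bases before the start, chr15:81802530-81802567, plus strand: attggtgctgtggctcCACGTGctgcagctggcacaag
Tef window 2, E-box 138 bases before the start, chr15:81811260-81811297, plus strand: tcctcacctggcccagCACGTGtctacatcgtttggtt
Hlf, cAMP response element 9 bases before the start, chr11:90390918-90390942, minus strand: cgcgcggtgcgggcccTGACGTCAc
Per3, D-box 205 bases before the start, chr4:151044847-151044886, minus strand: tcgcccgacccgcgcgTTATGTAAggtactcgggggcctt
Per3, D-box 158 bases before the start, chr4:151044800-151044839, minus strand: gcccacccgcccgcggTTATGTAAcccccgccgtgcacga

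The repressor *Nfil3* showed the largest genotype difference of the 4 genes, and it was of like size at both time points. At ZT8, *Nfil3* ranged from 4.83 to 6.57 CPM (median 6.05) in the 6 control libraries and from 9.79 to 13.3 CPM (median 11.2) in the 6 *ChAT-BKO* libraries. At ZT20, it ranged from 6.61 to 9.17 CPM (median 7.66) in controls and from 13.7 to 16.3 CPM (median 14.6) in *ChAT-BKO*. Every knockout library was above every control library at both times. At ZT8, 0.396% of the 21738 genes tested had all 6 knockout libraries above all 6 controls, and at ZT20 0.359% did. By edgeR's quasi-likelihood test with Benjamini-Hochberg adjustment over all genes tested, *Nfil3* rose by a log2 fold change of 0.95 (SE 0.11, 1.94-fold, 95% interval 1.66 to 2.26) at ZT8, with an edgeR adjusted p of 9.45e-05. It rose by 0.96 (SE 0.10, 1.94-fold, 95% interval 1.67 to 2.26) at ZT20, with an edgeR adjusted p of 2.70e-05. The call held without each library in turn, and the log2 fold change ran from 0.90 to 0.99 at ZT8 and from 0.91 to 1.02 at ZT20.

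*Hlf*, an activator, was also higher in the knockout, by a smaller step. At ZT8, *Hlf* ranged from 8.20 to 11.7 CPM (median 9.65) in controls and from 12.9 to 15.4 CPM (median 14.2) in *ChAT-BKO*. At ZT20, it ranged from 8.54 to 11.8 CPM (median 10.5) in controls and from 12.4 to 18.5 CPM (median 13.4) in *ChAT-BKO*. The genotypes did not overlap at either time point, and the highest knockout libraries at ZT20 were replicate 6 at 18.5 and replicate 5 at 15.4 CPM. *Hlf* rose by a log2 fold change of 0.52 at ZT8 (SE 0.09, 1.43-fold, 95% interval 1.25 to 1.64, edgeR adjusted p = 0.0211). At ZT20 its log2 fold change of 0.44 (SE 0.11, 1.36-fold, 95% interval 1.16 to 1.58) had an unadjusted p of 0.000502 and did not pass over all genes (edgeR adjusted p = 0.127). Over both time points, with time as a term and the same 24 libraries, *Hlf* rose by 0.48 (SE 0.07, 1.39-fold, edgeR adjusted p = 5.27e-05). The ZT8 call was close to the threshold. It was lost without control replicate 1, 3, 4 or 6 or *ChAT-BKO* replicate 1, 3 or 6 (edgeR adjusted p = 0.0533 to 0.0882, log2 fold change 0.48 to 0.52), and with the glial to cholinergic marker ratio as a covariate (log2 fold change 0.49, edgeR adjusted p = 0.120).

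*Dbp*, the activator that CLOCK and BMAL1 are known to drive directly, had lower means in the knockout but overlapping genotypes. At ZT8, *Dbp* ranged from 13.5 to 23.1 CPM (median 16.8) in controls and from 11.3 to 16.0 CPM (median 13.3) in *ChAT-BKO*. At ZT20, it ranged from 8.06 to 11.7 CPM (median 9.30) in controls and from 7.49 to 9.64 CPM (median 8.07) in *ChAT-BKO*. Only 4 of 6 knockout libraries at ZT8 and 3 of 6 at ZT20 lay below all controls. The share of genes with such a partial separation was not computed. Complete separation, with all 6 below all controls, held for 0.175% of genes at ZT8 and 0.147% at ZT20. The log2 fold change was -0.38 at ZT8 (SE 0.11, 95% interval -0.62 to -0.14, edgeR adjusted p = 0.580) and -0.25 at ZT20 (SE 0.12, 95% interval -0.50 to 0.00050, edgeR adjusted p = 0.793). Over both time points the log2 fold change of *Dbp* was -0.32 (SE 0.08, 0.800-fold, 95% interval 0.710 to 0.901). It did not pass the threshold (edgeR adjusted p = 0.0710), but it did so under DESeq2 (adjusted p = 0.0234), and without control replicate 1 or 6 at ZT20 or control replicate 5 at ZT8 the edgeR adjusted p was 0.0471, 0.0475 and 0.0288. The overlapping gene *Sphk2* differed between genotypes by 0.01 on the log2 scale at both times. In controls at ZT8, replicate 2 was the highest and replicate 5 the lowest for both *Dbp* (23.1 and 13.5 CPM) and *Sphk2* (108 and 79.5 CPM). In controls at ZT20 the highest replicate was the same for both genes but the lowest was not. In *ChAT-BKO* at ZT20 the lowest was the same but the highest was not. In *ChAT-BKO* at ZT8 neither was the same.

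*Tef* was the most abundant and the most uniform of the 4 genes. At ZT8 it ranged from 114 to 126 CPM (median 116) in controls and from 115 to 124 CPM (median 120) in *ChAT-BKO*. At ZT20 it ranged from 111 to 122 CPM (median 115) in controls and from 99.4 to 118 CPM (median 111) in *ChAT-BKO*. The groups overlapped throughout. The coefficient of variation within a group was 3.06% to 6.403% for *Tef* and 6.22% to 18.1% for the other genes. The log2 fold change between genotypes was 0.03 at ZT8 (SE 0.05, 95% interval -0.07 to 0.13, edgeR adjusted p = 1.00) and -0.06 at ZT20 (SE 0.05, 95% interval -0.17 to 0.05, edgeR adjusted p = 0.888). These intervals bound the genotype difference of *Tef* at 0.888-fold to 1.096-fold. The E-boxes printed above lie before *Tef*, and their bearing on its level was not tested.

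Across all genes, 0.184% were called between genotypes at ZT8 (0.129% higher and 0.0552% lower), and 0.23% at ZT20 (0.189% higher and 0.0414% lower). Of the 4 genes, 2 rose at ZT8 and 1 rose at ZT20, and none fell at either time. The median log2 fold change over the 4 was 0.27 at ZT8 and 0.19 at ZT20, and over all genes tested 0.00013 and -0.0065. Over both time points, 0.741% of genes were called, 0.529% higher and 0.212% lower, and *Nfil3* (log2 fold change 0.96, SE 0.07, edgeR adjusted p = 5.33e-11) and *Hlf* were among those higher. The genotype differences at the 2 time points were then compared with each other by an interaction term. It gave 0.14 for *Dbp* (95% interval -0.21 to 0.49), -0.08 for *Tef* (-0.21 to 0.05), -0.06 for *Hlf* (-0.35 to 0.22) and 0.02 for *Nfil3* (-0.28 to 0.31), as log2 differences of ZT20 minus ZT8. No gene passed for this interaction with edgeR (smallest adjusted p = 0.864), with DESeq2 or with limma voom, while 848 genes had an unadjusted edgeR p under 0.05. A change of the genotype effect on *Dbp* between the time points of up to 0.49 on the log2 scale is thus within the interval.

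**Figure D1:**
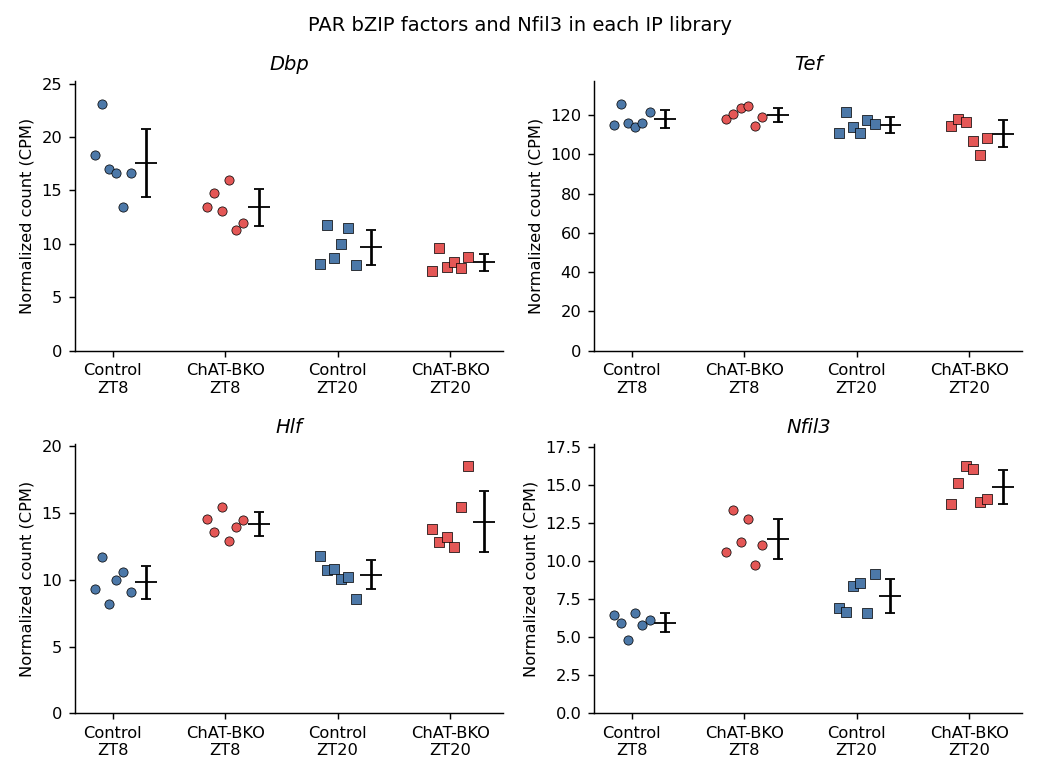
Normalized counts (CPM) of *Dbp*, *Tef*, *Hlf* and *Nfil3* in each of the 24 IP libraries by group, with control libraries in blue, *ChAT-BKO* in red, ZT8 as circles and ZT20 as squares, and the mean and SD (n = 6) beside the points. *Nfil3* and *Hlf* separate by genotype at both times, *Dbp* separates by time point in both genotypes, and *Tef* lies between 99.4 and 126 CPM throughout.

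Between the time points, *Dbp* gave the clearest difference and *Nfil3* the opposite one. Only ZT8 and ZT20 were sampled, so neither the course over the day nor the time of a peak can be read. All 6 libraries at ZT20 had less *Dbp* than all 6 at ZT8 in either genotype, with mean levels of 17.5 ± 3.17 and 9.66 ± 1.66 CPM (SD, n = 6) in controls and 13.4 ± 1.75 and 8.29 ± 0.804 CPM in *ChAT-BKO*. In controls 0.35% of genes, and in *ChAT-BKO* 0.506%, had all ZT20 libraries below all ZT8 libraries. *Dbp* fell from ZT8 to ZT20 by 0.86 on the log2 scale in controls (SE 0.12, 0.550-fold, 95% interval 0.460 to 0.659, edgeR adjusted p = 0.00740). In *ChAT-BKO* it fell by 0.72 (SE 0.11, 0.605-fold, 95% interval 0.519 to 0.706, edgeR adjusted p = 0.00249). Over both genotypes it fell by 0.80 (SE 0.08, edgeR adjusted p = 4.02e-07), and *Sphk2* changed by -0.03. The interaction given above is also the difference between these 2 time point effects, so no difference between them was detected.

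The call for *Dbp* in controls was lost with the glial to cholinergic marker ratio as a covariate (log2 fold change -0.83, edgeR adjusted p = 0.0661), a fit in which edgeR called no gene between the time points in controls and 1490 genes had an unadjusted p under 0.05. That log2 ratio ranged from -0.82 to -0.72 in controls at ZT8 and from -0.85 to -0.52 at ZT20, and its part in the result was not tested. Over both genotypes, 1 of 6 astrocyte markers (*Gjb6*) and 1 of 5 endothelial markers (*Cldn5*) were higher at ZT20, and the summed endothelial markers were at 6.85 to 12.2 CPM over the ZT8 libraries and 9.93 to 18.6 CPM over the ZT20 libraries.

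*Nfil3* differed in the other direction between the time points. Its mean was 5.96 ± 0.625 CPM at ZT8 and 7.72 ± 1.11 at ZT20 in controls, and 11.5 ± 1.34 and 14.9 ± 1.13 in *ChAT-BKO* (SD, n = 6). The ZT20 libraries were all above the ZT8 libraries in both genotypes, as were those of 0.589% of genes in controls and 0.676% in *ChAT-BKO*. Within one genotype the change did not pass (controls, log2 fold change 0.35, SE 0.12, edgeR adjusted p = 0.396, and *ChAT-BKO*, 0.36, SE 0.09, edgeR adjusted p = 0.137). Over both genotypes *Nfil3* rose from ZT8 to ZT20 by 0.35 (SE 0.07, 1.28-fold, 95% interval 1.16 to 1.41, edgeR adjusted p = 0.00306). The gain of *Nfil3* in the knockout at either time was larger than this step, and the ZT8 knockout libraries (9.79 to 13.3 CPM) were all above the ZT20 control libraries (6.61 to 9.17 CPM).

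*Hlf* and *Tef* did not pass for time point in any fit. *Hlf* differed between ZT20 and ZT8 by 0.07 on the log2 scale in controls (95% interval -0.15 to 0.28) and by -0.00041 in *ChAT-BKO* (-0.20 to 0.20). *Tef* differed by -0.03 in controls (95% interval -0.13 to 0.07) and by -0.12 in *ChAT-BKO* (-0.23 to -0.0043, edgeR adjusted p = 0.507). As background, 0.115% of genes were called between the time points in controls (0.0184% lower), 0.285% in *ChAT-BKO* (0.0552% lower) and 2.69% over both genotypes (1.69% higher and 1% lower).

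**Figure D2:**
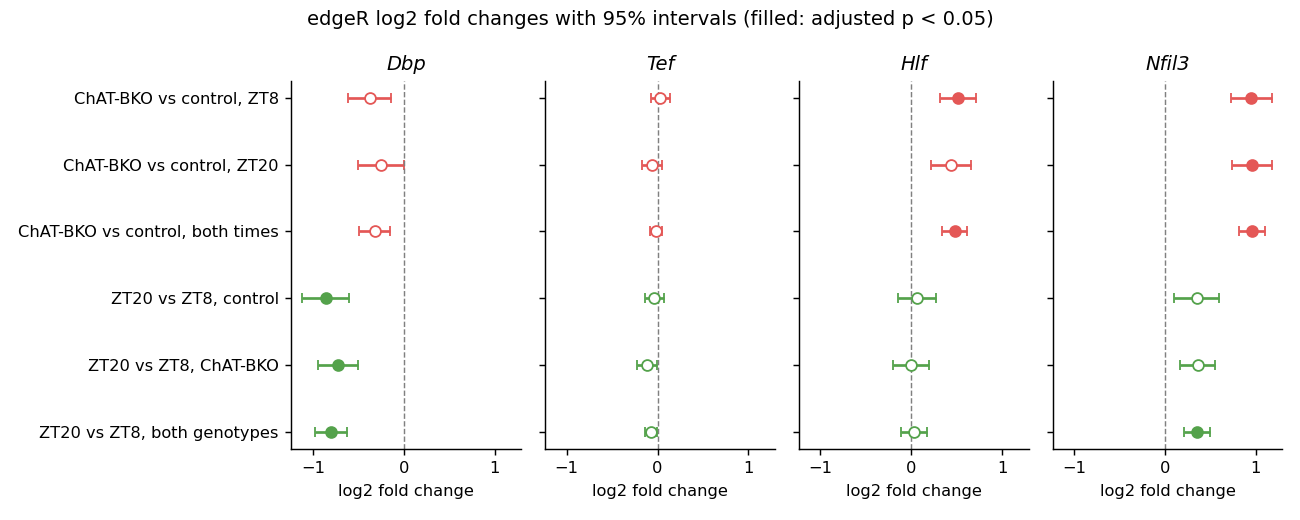
Log2 fold changes (points) with 95% intervals (bars) from edgeR for the 4 genes in 6 comparisons, genotype in red and time point in green, with filled points at an adjusted p under 0.05. The genotype points of *Nfil3* lie at 0.95 and 0.96 and its time points at 0.35 and 0.36, while *Dbp* reaches -0.86 and -0.72 between time points and -0.38 and -0.25 between genotypes.

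To set the activators against their repressor within each library, counts were divided by the exon length of each gene (union of annotated exons, 2993 bp for *Dbp*, 7867 bp for *Tef*, 6681 bp for *Hlf* and 2026 bp for *Nfil3*) and the log2 ratio of each activator to *Nfil3* was taken, which removes library scaling. Per kilobase, *Tef* was the highest and *Hlf* the lowest of the 4 in all 24 IP libraries. *Dbp* was above *Nfil3* in all 6 controls at ZT8, in 2 of 6 controls at ZT20 and in none of the 12 *ChAT-BKO* libraries. This middle order depended on the length: with the longest annotated transcript *Dbp* was above *Nfil3* in 17 libraries instead of 8, including all 6 of *ChAT-BKO* at ZT8, 5 of 6 controls at ZT20 and none of *ChAT-BKO* at ZT20. For the ratio of a single activator to *Nfil3*, differences between groups do not depend on the length used. In the sum of the activators given below, the length sets the weight of each gene.

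The log2 ratio of *Dbp* to *Nfil3* per kilobase ranged from 0.65 to 1.40 (median 0.91) in controls and from -0.45 to -0.22 (median -0.36) in *ChAT-BKO* at ZT8. At ZT20 it ranged from -0.75 to 0.24 (median -0.35) in controls and from -1.62 to -1.22 (median -1.43) in *ChAT-BKO*. The mean ratio in *ChAT-BKO* at ZT8 (-0.34) was thus close to that in controls at ZT20 (-0.25), and the ranges of these groups overlap. The mean was lower in *ChAT-BKO* than in controls by 1.33 at ZT8 and 1.16 at ZT20 on the log2 scale. These ratios restate the counts of the 4 genes and are given without a test.

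For *Tef* over *Nfil3*, the log2 ratio was 2.36 ± 0.172 in controls and 1.44 ± 0.137 in *ChAT-BKO* at ZT8 and 1.95 ± 0.234 and 0.94 ± 0.116 at ZT20 (SD, n = 6), with no overlap between genotypes. *Hlf* over *Nfil3* was -1.004 ± 0.182 in controls and -1.41 ± 0.227 in *ChAT-BKO* at ZT8 without overlap, and -1.29 ± 0.329 and -1.79 ± 0.299 at ZT20, where 3 of 6 knockout libraries lay below all controls. Although *Hlf* itself was higher in the knockout, *Nfil3* was higher by more. The 3 activators summed were 7.61 times *Nfil3* per kilobase (geometric mean, range 6.63 to 9.08) in controls at ZT8 and 3.87 times (3.38 to 4.22) in *ChAT-BKO*. At ZT20 they were 5.13 times (4.12 to 6.37) and 2.59 times (2.29 to 2.82). Knockout libraries were below all controls at both times, and ZT20 libraries were below all ZT8 libraries of their genotype.

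**Figure D3:**
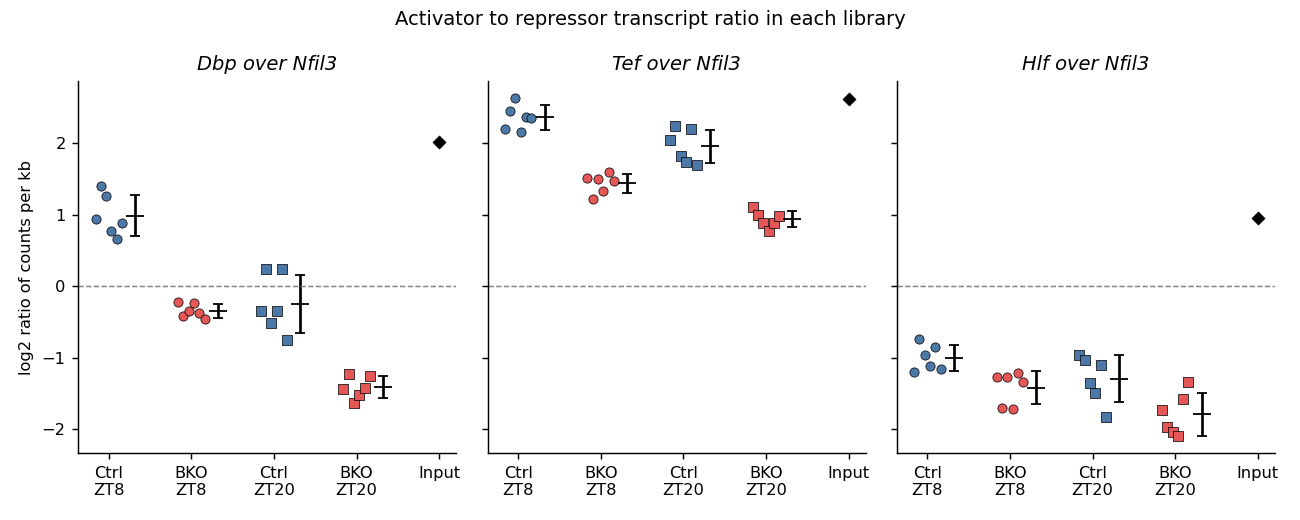
Log2 ratio of counts per kilobase of exon of *Dbp*, *Tef* and *Hlf* to *Nfil3* in each library, by group, with the mean and SD (n = 6) beside the points and the single input library as a diamond. The knockout points (red) lie below the control points (blue) of the same time in all 3 panels, with overlap for *Hlf* at ZT20, and the input lies at 2.01, 2.62 and 0.95.

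The pooled input gave the level of the 4 transcripts in RNA of the whole cord. *Dbp* was at 42.8 CPM in the input and 12.4 ± 4.18 CPM over the 24 IP libraries (log2 ratio -1.79), and *Hlf* at 46.0 and 12.3 ± 2.55 CPM (-1.90). *Tef* was at 171 and 117 ± 6.13 CPM (-0.54). For these activators none of the 24 IP libraries reached the input. Over controls and over *ChAT-BKO* the log2 ratio was -1.63 and -1.96 for *Dbp*, -2.17 and -1.67 for *Hlf*, and -0.54 and -0.55 for *Tef*. *Nfil3* was at 7.196 CPM in the input, and 15 of 24 IP libraries were above it, with a log2 ratio of 0.49 over all IP libraries, -0.05 over controls and 0.89 over *ChAT-BKO*. Scaled by library totals in place of TMM, 12 of 24 were above it and the ratio was 0.04. The median log2 ratio of astrocyte markers was -3.47 and of oligodendrocyte markers -3.19, lower than for any of the 4 genes, and of markers of other neurons -1.38, above that of *Dbp* and *Hlf*. Single glial markers spread widely, and *Aldoc* of astrocytes (-0.71) and *Aif1* of microglia (-0.91) lay above *Dbp* and *Hlf*. The input is 1 pooled library, so these ratios carry no replicate check. Its label does not say which time points and genotypes were pooled, and the ratios depend on that mix. How much of the *Dbp* and *Hlf* signal in the IP came from RNA of other cells was not tested. None of the 18 astrocyte, oligodendrocyte and microglia markers was called between genotypes at either time by edgeR, DESeq2 or limma voom. *Gjb6* at ZT8 alone had an unadjusted edgeR p under 0.05, which 4.83% of all genes had at ZT8. Of the 6 skeletal muscle markers, *Acta1* and *Tnnt3* were higher in *ChAT-BKO* at ZT20 with edgeR. DESeq2 and limma voom called 0 of the 6 there, and all 6 had an unadjusted edgeR p under 0.05, as did 6.28% of all genes. The summed level of the 6 was 4.77 to 20.9 CPM in those controls and 3.43 to 75.2 CPM in that knockout group. With muscle markers as a covariate *Nfil3* kept its ZT20 log2 fold change of 0.96 (edgeR adjusted p = 0.00127), and *Hlf* had 0.39 (edgeR adjusted p = 0.913).

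**Figure D4:**
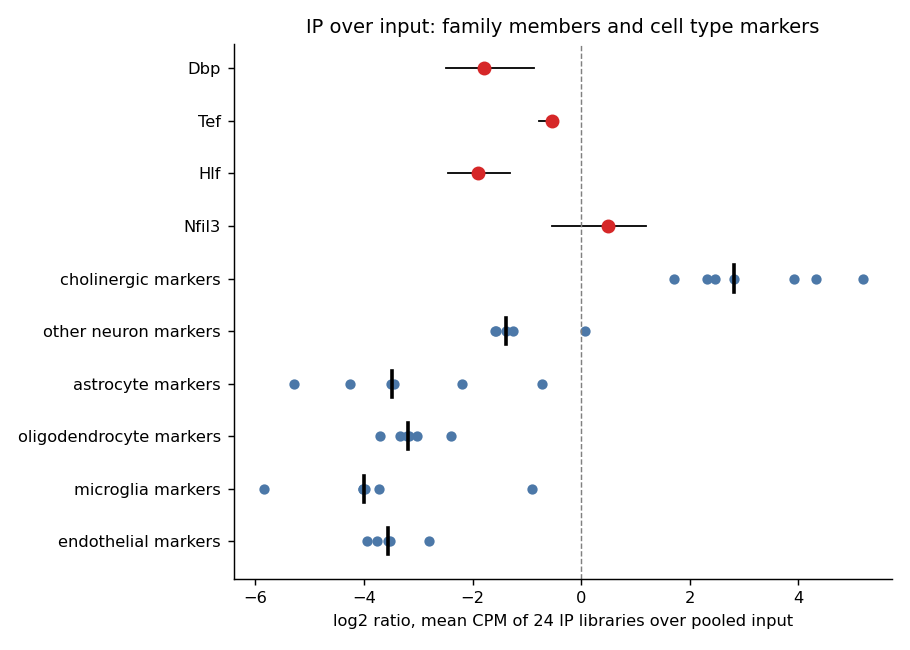
Log2 ratio of the mean CPM over 24 IP libraries to the pooled input for the 4 genes (red points, with bars from the lowest to the highest library) and for cell type markers (blue points, 1 per gene, with the median as a black tick). *Nfil3* lies at 0.49, *Tef* at -0.54, and *Dbp* and *Hlf* at -1.79 and -1.90, between the medians of the cholinergic markers (2.82) and the glial markers (-3.19 to -4.00). The astrocyte marker *Aldoc* (-0.71) and the microglia marker *Aif1* (-0.91) lie above *Dbp* and *Hlf*.

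The other clock genes were measured in the same libraries. Of 4 clock activators, *Arntl* alone was called at either time point, and *Npas2*, a partner of BMAL1 related to CLOCK, rose over both time points (log2 fold change 0.73, edgeR adjusted p = 0.0424). Of 8 clock repressors, *Cry1*, *Cry2* and *Per2* rose and *Ciart* fell at both times. *Cry1*, whose protein inhibits CLOCK and BMAL1, had log2 fold changes of 2.09 (SE 0.10) at ZT8 and 2.15 (SE 0.11) at ZT20, larger than those of *Nfil3*. *Per2* had 1.295 (SE 0.16) and 1.76 (SE 0.15), and *Ciart*, whose window holds 3 E-boxes, fell by 1.21 (SE 0.16) and 1.25 (SE 0.12). The window of *Cry1*, which rose, holds an E-box as well. Between the time points, *Ciart* was the 1 gene of these called with edgeR over both genotypes, where it fell by 0.38 from ZT8 to ZT20 (edgeR adjusted p = 0.0269). DESeq2 called 3 of the 8 repressors and 1 of the 4 activators, and limma voom 2 and 0. *Per3*, whose D-boxes are printed above, had a genotype log2 fold change of 0.08 at ZT8 (edgeR adjusted p = 1.00) and 0.19 at ZT20 (edgeR adjusted p = 0.838).

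Of the REV-ERB receptor genes, *Nr1d2* fell by 1.11 (SE 0.06) at ZT8 and by 1.35 (SE 0.09) at ZT20 on the log2 scale. *Nr1d1* fell by 0.72 (SE 0.08) at ZT8, had -0.50 (SE 0.12, edgeR adjusted p = 0.140) at ZT20 and fell by 0.61 over both times. These genes encode the REV-ERB repressors for which *Nfil3* is a known target, and a link between their levels and that of *Nfil3* was not tested.

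**Figure D5:**
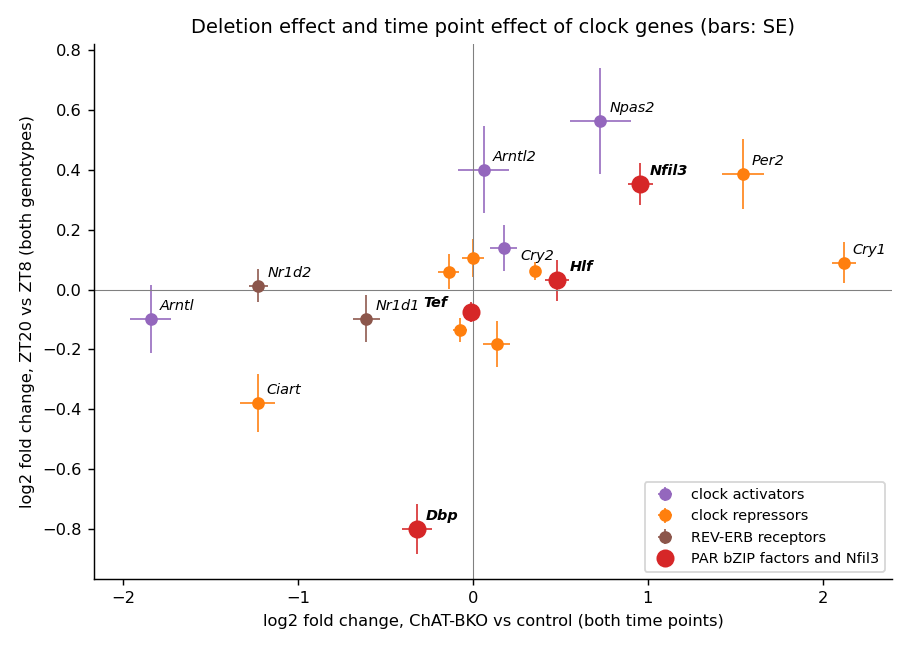
Log2 fold change between genotypes over both time points (horizontal axis) against that between ZT20 and ZT8 over both genotypes (vertical axis) for the 4 genes (red) and 14 other clock genes, with bars of 1 SE. *Nfil3* lies at 0.96 and 0.35, *Hlf* at 0.48 and 0.03, *Tef* near the origin and *Dbp* at -0.32 and -0.80, the lowest point on the vertical axis, while *Cry1* and *Arntl* mark the ends of the horizontal axis.

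Genes listed as output of the PAR bZIP factors, mostly in liver, did not pass at either time. Of this list only *Alb*, which was not tested, held a D-box in its window, and *Wee1* had no window. Of 11 such genes 8 had at least 10 counts over the IP libraries and were tested. edgeR, DESeq2 and limma voom called 0 of them at ZT8, at ZT20 or over both times. The median log2 fold changes in edgeR were -0.09, 0.09 and -0.01, in that order. *Nr1i3* (SE 0.42 at ZT8 and 0.51 at ZT20) and *Tshb* (SE 0.36 and 0.38) had wide errors, and *Cyp2a5* had few reads. The lack of a call says little about these genes. DESeq2 gave no adjusted p for 1, 2 and 1 of the 8. At an unadjusted edgeR p under 0.05 there were 0 at ZT8 and 3 at ZT20 (*Alas1*, *Cyp2a5* and *Usp2*), and the same 3 over both time points. Of all genes tested, 4.83% had such a p at ZT8, 6.28% at ZT20 and 7.04% over both time points. *Cyp2a5*, a cytochrome P450 gene, had 0 reads in all 6 *ChAT-BKO* libraries at ZT20 and between 0 and 3 in each control library at ZT20, too few for a fold change. *Pdxk*, the kinase that makes active vitamin B6, had 0.07 (SE 0.06) at ZT8 and 0.12 (SE 0.10) at ZT20. *Usp2*, a clock-linked deubiquitinase, had -0.09 (SE 0.14) and -0.26 (SE 0.10), and *Wee1*, a cell cycle kinase, -0.10 (SE 0.10) and 0.03 (SE 0.10). *Por* and *Alas1*, which supply the cytochrome P450 system with electrons and heme, had -0.12 and 0.02 at ZT8 and 0.06 and 0.13 at ZT20. None of the 5 vitamin B6 genes, the 5 tested C/EBP relatives and the 7 CREB and ATF relatives was called between genotypes at either time by any of the 3 tools, and their median log2 fold changes lay between -0.03 and 0.07. *Atf3* and *Crem* at ZT20 were the only genes of these lists with an unadjusted edgeR p under 0.05, which 6.28% of all genes had at ZT20.

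Within groups, the 4 genes varied largely apart from each other between mice. After removing group means, the log2 CPM of *Dbp* and *Tef* correlated over 24 libraries with Pearson's r = 0.52 (permutation p = 0.00660, adjusted over 6 pairs 0.0396) and Spearman's rho = 0.43 (permutation p = 0.0420, adjusted 0.252). Without control replicates 2 and 5 at ZT8, r was 0.44, and over the 3 alternatives run, this one included, it was 0.38 to 0.52. The values of both genes come from the same libraries and share their depth. The other 5 pairs had r between -0.29 and 0.09 (permutation p adjusted over 6 pairs of 0.505 or more).

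Over the 24 IP libraries and among 10428 genes with a mean of at least 5 CPM, the profile of *Nfil3* was most like those of *Cdkn1a* (Pearson's r = 0.93, Spearman's rho = 0.94), *Cry2* (0.91 and 0.85) and *Per2* (0.91 and 0.86). *Hlf* was most like *Cry1* (0.85 and 0.79), *Scd3* (0.84 and 0.79) and *Lamp5* (0.84 and 0.76). *Dbp* was most like *Chpf2* (0.92 and 0.87) and *Eml2* (0.88 and 0.88). *Tef* had the lowest values, with *Tfrc* (0.73 and 0.57), *Il33* (0.72 and 0.65) and *Shtn1* (0.70 and 0.40). These correlations run over libraries of 4 groups and include the group differences, so they describe profiles and were not tested.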

How the data were processed

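Ribosome-bound RNA was measured in 24 IP libraries and 1 pooled input library. The deposited values are expected counts per gene that the authors estimated with RSEM 1.3.0 after STAR 2.7.5 alignment to mm10 with Ensembl 98, and they used DESeq2 1.32.0 for their own tests. Expected counts divide reads shared by overlapping genes, so 6.11% of values were not whole, and they were rounded here. Rows were matched by symbol, and GRCm38 positions and exon lengths came from GENCODE M21. Of 50559 genes, 21076 had no count and 21738 with at least 10 counts over the IP libraries were tested. edgeR 4.0.16 (R 4.3.3) was run with TMM factors, quasi-likelihood fits and Benjamini-Hochberg adjustment, and genes were called at an adjusted p under 0.05. Genotype was tested at each time point and time point within each genotype on 12 libraries, and the interaction and additive terms on 24, which reuse the same libraries. CPM values are normalized by TMM. The SE is the log2 fold change divided by the square root of F. DESeq2 1.42.0 and limma 3.58.1 were alternatives. The edgeR fits were also run on simulated counts with set changes larger than any found for the 4 genes. Effects of the size found here were not covered by that run. Other alternatives were another filter, a replicate block, a glial or muscle covariate (the latter chosen after seeing the data) and leaving out each library. Intervals for input ratios were not computed, and depth limits *Nfil3*, with 33 counts in its lowest library, more than *Tef*, with 468.

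The 4 genes and all lists were chosen with earlier results of these data known. Named were the 4 genes, clock genes, genes called in the lists and the 3 genes with the most similar profile per member, and some genes that this rule names are not reported here. The mice of a group were separate animals, 60 pairs of libraries within groups had a chi-square per degree of freedom of 1.80 to 25.4, and none was treated as a duplicate. All samples were processed on the same day.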

Additional observations from a re-analysis of the deposited data

How the results depend on the processing

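Over 720 alternative values of 28 test results on the 4 genes, 681 kept their direction and their side of the threshold, 9 lost the call, 10 gained it and 20 changed sign, the last all in results that were not called. *Nfil3* kept its genotype calls at ZT8, at ZT20 and over both times in every alternative run (log2 fold change 0.89 to 1.02). *Dbp* kept its call between time points in *ChAT-BKO* and over both genotypes.

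With DESeq2 the genes called were 70 (edgeR 40) between genotypes at ZT8, 93 (50) at ZT20, 127 (25) between time points in controls, 218 (62) in *ChAT-BKO* and 971 (585) over both genotypes, and *Hlf* at ZT20 (0.44, adjusted p = 0.0210), *Nfil3* between time points in *ChAT-BKO* (0.35, 0.0445) and *Dbp* between genotypes over both times (-0.32, 0.0234) passed. With all 24 libraries in the fit, 140 genes were called between time points in *ChAT-BKO*, and *Hlf* at ZT20 passed (0.45, 0.0384). With edgeR's filterByExpr, *Dbp* between genotypes over both times passed (-0.32, 0.0481). The replicate block gave 69 genes at ZT8 and 86 between time points in controls and *Dbp* between genotypes over both times at -0.31 (adjusted p = 0.0432). Samples of the same number did not deviate together (13 of 36 pairs with a correlation over 0.1, 7 highest with their own number). With the glial covariate 22 genes were called at ZT8 and 0 between time points in controls, with *Hlf* at ZT8 at 0.49 (0.120) and *Dbp* in controls at -0.83 (0.0661). With the muscle covariate 16 genes were called at ZT20 and 40 between time points in *ChAT-BKO*, and *Dbp* between genotypes over both times had -0.34 (0.0448). *Hlf* between time points in *ChAT-BKO* was 0.0069 with the glial and 0.0063 with the muscle covariate. The causes were not tested.

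Leaving out each library gave 19 to 42 genes at ZT8, 29 to 69 at ZT20, 0 for the interaction, 11 to 28 between time points in controls, 33 to 56 in *ChAT-BKO*, 126 to 199 between genotypes and 448 to 628 between time points over all groups. *Hlf* at ZT8 ranged from 0.48 to 0.58 and *Dbp* between genotypes over both times from -0.35 to -0.27. Results near 0 changed sign, from -0.035 to 0.072 for the *Nfil3* interaction, -0.071 to 0.029 for *Hlf* between time points in *ChAT-BKO*, -0.024 to 4.8e-05 for *Tef* between genotypes and -0.0024 to 0.052 for *Hlf* between time points.

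With the longest transcript as length, the log2 ratios to *Nfil3* in controls and *ChAT-BKO* at ZT8, then at ZT20, were 1.69, 0.36, 0.46 and -0.71 for *Dbp*, 3.19, 2.27, 2.79 and 1.77 for *Tef*, and 3.70, 2.72, 3.13 and 2.13 for the summed activators. For *Hlf* they were -0.76 and -1.17 at ZT8. With library totals in place of TMM, the IP to input log2 ratio was -0.999 for *Tef*, -2.35 for *Hlf*, -2.25 for *Dbp* and 0.04 for *Nfil3*.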
